A study of Rattus norvegicus with 20 samples.

Results

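App, Aplp1, Aplp2, Bace1, Psen2, Adam10, Mapt, Gsk3a and Gsk3b form a set of 9, out of 14217 named genes on the array, of the amyloid precursor family, the secretases that cut it, tau and the kinases that act on tau. They were taken as every probe set that the platform annotation gives to 1 of these genes alone. This gave 18 probe sets of 31042 that are not controls, and no probe set named a member together with another gene. Of these, 16 passed the filter on low signal and were among the 18625 tested. Both probe sets that did not pass belong to Aplp2.

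App is a membrane protein of neurons, and Aplp1 and Aplp2 are its relatives. Adam10 is the main neuronal alpha-secretase and cuts App within the amyloid-beta stretch. Bace1 is the beta-secretase and Psen2 can form the catalytic subunit of gamma-secretase, and their successive cuts release amyloid-beta. Mapt encodes tau, which binds microtubules in axons. Gsk3a and Gsk3b are closely related serine-threonine kinases that phosphorylate tau, and Akt inhibits both. These pathways have been studied for effects of volatile anaesthetics such as isoflurane.

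Total RNA was measured on 1-colour Affymetrix rat arrays, 1 for each of 20 male Sprague Dawley rats that were 20 weeks old and weighed 250 to 300 g. The oxygen group of 10 rats breathed pure oxygen for 15 minutes. The isoflurane group of 10 rats breathed 2% isoflurane in oxygen, a dose of 1.4 MAC (the unit of anaesthetic potency), for the same time. All recovered for 6 hours before the brain was taken, the tissue is labelled brain cortex for every rat, and no other treatment or allele is given.

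The arrays differed in ways that the groups do not explain. Pcp2, a Purkinje cell gene, had a linear signal of 12436 to 18438 on 11 arrays and of 22.0 to 1632 on the other 9. The high-Pcp2 set held 6 oxygen arrays (replicates 5 to 10) and 5 isoflurane arrays (replicates 1, 3, 7, 8, 9). The low-Pcp2 set held 4 oxygen arrays (replicates 1 to 4) and 5 isoflurane arrays (replicates 2, 4, 5, 6, 10). A list of cerebellar markers, 7 of 8 with a probe set, had sums of 48644 to 66318 on these 11 against 2077 to 8525 on the others. The highest Pcp2 signal and marker sum among the 9 belonged to isoflurane replicate 10, at 1632 and 8525, and the other 8 had sums of 2077 to 4844. All 7 cerebellar markers were higher on each of the 11 arrays than on any of the 9. Of 6 cortex markers with a probe set, Fezf2, Emx1 and Cux2 were lower on each of the 11, with log2 signals of 1.31 to 6.96, 3.40 to 7.28 and 7.00 to 8.40 against 8.69 to 9.43, 8.37 to 8.93 and 8.84 to 9.49. Neurod6, Slc17a7 and Tbr1 overlapped between the sets, as did the sum of the cortex list, at 2898 to 7359 against 5082 to 12333. These values go against a label of cortex alone for the 11 arrays.

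Some marker levels also differed between the groups of the low-Pcp2 set. Sums of the cortex list were 7900 to 12333 in oxygen against 5082 to 6370 in isoflurane, without overlap, and isoflurane replicate 10 was at 6016. Of its 6 genes, 3 did not overlap and were lower in isoflurane, namely Slc17a7 (12.09 to 13.06 against 11.31 to 11.72), Neurod6 (10.85 to 10.92 against 9.77 to 10.30) and Emx1 (8.80 to 8.93 against 8.37 to 8.79). Fezf2, Cux2 and Tbr1 overlapped, with medians of 9.05, 9.18 and 7.26 in oxygen against 9.35, 9.31 and 4.87 in isoflurane. Fezf2 was 8.69 to 9.12 in oxygen and 9.27 to 9.43 on isoflurane replicates 2, 4, 5 and 6. Atp1b2, 1 of 6 astrocyte markers, was also lower without overlap, at 12.53 to 13.15 against 12.17 to 12.33. So were Tubb3, 1 of 6 neuron markers, and Csf1r, 1 of 6 microglia markers. Mog, 1 of 5 oligodendrocyte markers, was higher without overlap. Of all tested probe sets 13.2% did not overlap between these groups, so 1 marker of 5 or 6 is near that share. The sums of the neuron list overlapped, at 41605 to 50404 and 44646 to 51786. In the high-Pcp2 set no cortex, neuron, astrocyte, microglia or oligodendrocyte marker separated the groups, against 0.988% of all tested probe sets.

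Isoflurane replicates 2, 4, 5 and 6 had the 4 highest values of the 3'/5' ratio of the control transcripts Actb and Gapdh, a measure of RNA integrity that grows as RNA is degraded. Their log2 ratio was 1.28 to 1.59, and that of the other 16 arrays was 0.63 to 1.23, with oxygen replicate 2 the next below them at 1.23. The same 4 arrays had cerebellar marker sums of 2077 to 2561, against 3087 to 4844 in low-Pcp2 oxygen arrays. Their Pcp2 signal was 22.0 to 61.0 against 198 to 439. Sums of a choroid plexus list were 488 to 632 against 839 to 13271. The part of these tissue markers in the member differences was not tested. Called members are therefore given over all arrays with the Pcp2 set as a block, within each set, and without these 4 arrays.

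Over the 20 arrays, Gsk3a and Aplp1 were lower 6 hours after isoflurane. Gsk3a fell by 0.84 and Aplp1 fell by 0.55 on the log2 scale. These were 2 of the 16 tested member probe sets called by limma at an adjusted p under 0.05, and none was called higher. Of all tested probe sets 7.37% were called, 480 of them higher (2.58%) and 892 lower (4.79%), so the members' share was close to the background. With arrays centred on their medians the split was 304 higher and 1175 lower. The median difference of the members was 0.07, and that of all tested probe sets was 0.0035. Without isoflurane replicates 2, 4, 5 and 6 no member was called, 5 of the 16 had an unadjusted p under 0.05, and 0 of all 18625 probe sets were called (3016 at an unadjusted p under 0.05). In whole-tissue RNA, fewer cells of a type and less RNA per cell cannot be told apart.

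**Figure D1:**
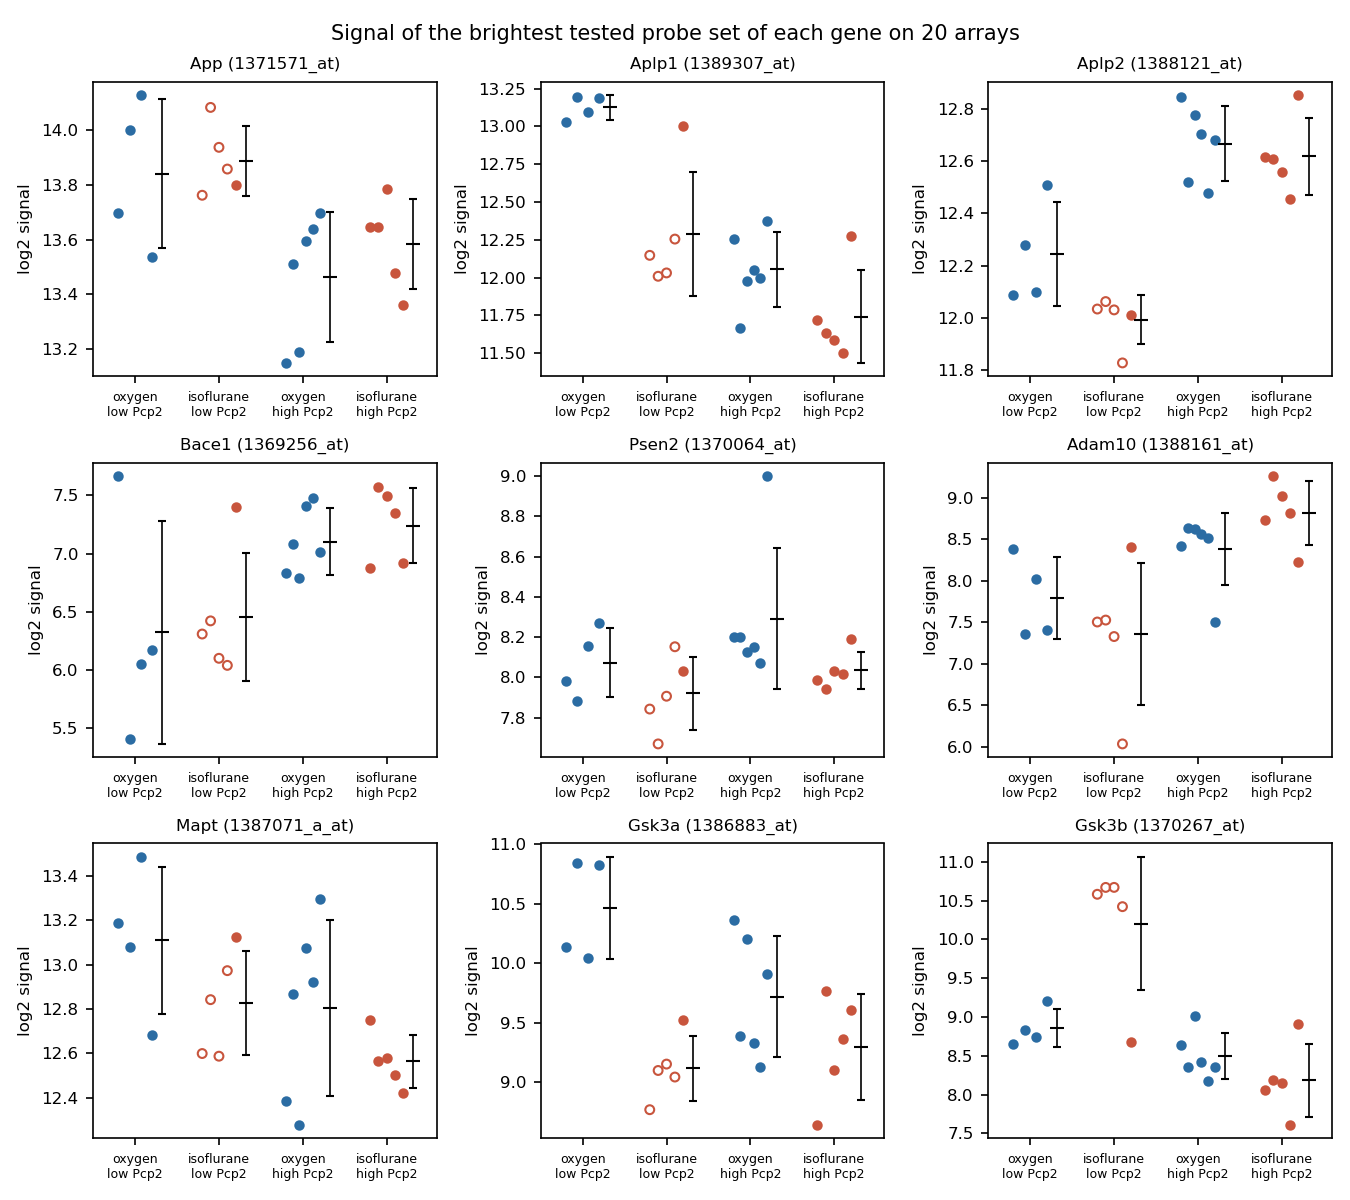
Log2 signal of the brightest tested probe set of each gene on each of 20 arrays, by group and Pcp2 set; open circles are isoflurane replicates 2, 4, 5 and 6, and bars are mean and SD. Gsk3b is at 10.42 to 10.67 on the 4 open circles and at 7.61 to 9.20 elsewhere, while Gsk3a is at 10.05 to 10.84 in low-Pcp2 oxygen arrays and at 8.77 to 9.53 in low-Pcp2 isoflurane arrays.

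Among the precursor family, App itself was not called in any comparison. Its brightest probe set, 1371571_at, had log2 signals of 13.70, 14.00, 14.13 and 13.53 in the low-Pcp2 oxygen arrays and 13.76, 14.08, 13.94, 13.86 and 13.80 in the low-Pcp2 isoflurane arrays. Among the high-Pcp2 arrays it ran from 13.15 to 13.70 with a median of 13.55 in oxygen, and the isoflurane arrays gave 13.65, 13.65, 13.79, 13.48 and 13.36. Groups overlapped in both sets, and the levels were lower in the high-Pcp2 set. The isoflurane difference was 0.09 ± 0.09 (SE) with a 95% interval of -0.10 to 0.27 (limma, adjusted p = 0.547), and it was -0.021 after quantile normalization. For 1371572_at, a further App probe set, the difference was 0.14 ± 0.08 with an interval of -0.03 to 0.31 (limma, adjusted p = 0.267). Neither interval reached beyond 0.31 in either direction.

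The last App probe set, 1380533_at, varied much more between arrays. It read 11.13, 9.15, 9.86 and 9.59 in the low-Pcp2 oxygen arrays and 9.55, 9.81, 9.29, 9.16 and 11.03 in the low-Pcp2 isoflurane arrays. The high values were oxygen replicate 1 and isoflurane replicate 10, whose log2 3'/5' ratios of 0.755 and 0.754 were the lowest of that set. Over the 11 high-Pcp2 arrays it ran from 9.78 to 11.32 with a median of 10.42 in oxygen, and in isoflurane it was 10.79, 11.38, 11.28, 11.13 and 9.82. Its isoflurane difference was 0.15 ± 0.28 (limma, adjusted p = 0.763). Its interval of -0.43 to 0.73 allows a change in either direction.

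Aplp1, a precursor relative found mainly in neurons, was measured by 1389307_at alone. In the low-Pcp2 oxygen arrays it read 13.03, 13.20, 13.10 and 13.19. In the low-Pcp2 isoflurane arrays it read 12.15, 12.01, 12.03, 12.25 and 13.00. The groups did not overlap in this set, although isoflurane replicate 10 lay only just below the lowest oxygen array. For the high-Pcp2 arrays Aplp1 ran from 11.67 to 12.37 with a median of 12.02 in oxygen, and in isoflurane it was 11.72, 11.63, 11.59, 11.50 and 12.27. These groups overlapped, and 4 of the 5 isoflurane values fell short of the oxygen mean.

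With the set as a block, Aplp1 was 1.46-fold lower after isoflurane, a log2 difference of -0.55 ± 0.13 (SE, 10 arrays a group; limma, adjusted p = 0.0210). It stayed past the threshold in each of 20 fits that left out 1 array, at -0.63 to -0.51, and with the 3'/5' ratio as a covariate, at -0.51 ± 0.13 (limma, adjusted p = 0.0206). When isoflurane replicates 2, 4, 5 and 6 were left out it was -0.27 ± 0.12 (limma, adjusted p = 0.270). Without the set in the fit it was -0.47 ± 0.22 (limma, adjusted p = 0.307). Within the low-Pcp2 set the difference was -0.84 ± 0.18 (limma, adjusted p = 0.0135), and -0.13 ± 0.18 without the 4 arrays (limma, adjusted p = 0.935). With the 3'/5' ratio as a covariate it was -0.60 ± 0.16 there and no longer called (limma, adjusted p = 0.0514). Cortex marker sums were also lower on these isoflurane arrays, at 5082 to 6370 against 7900 to 12333 in oxygen. Of the 6 cortex markers, Slc17a7, Neurod6 and Emx1 were lower without overlap, and Fezf2, Cux2 and Tbr1 overlapped. The part of these markers in the Aplp1 difference was not tested. Without the 4 arrays only isoflurane replicate 10 remains in that group, and it is assumed to vary like the oxygen arrays. That array also had the highest cerebellar marker sum of the low-Pcp2 set. In the high-Pcp2 set it was -0.31 ± 0.15 (limma, adjusted p = 0.395). Leaving out isoflurane replicate 9, whose 3'/5' ratio of 0.99 was the highest of the 11, made this -0.44 (limma, adjusted p = 0.0461). That fit called 5.83% of all probe sets. The difference between the sets' effects did not pass the test, at 0.53 with an interval of 0.02 to 1.04 (limma, adjusted p = 0.169).

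Aplp2, the more widely expressed relative, had 5 probe sets that did not move together. The brightest, 1388121_at, read 12.09, 12.28, 12.10 and 12.51 in low-Pcp2 oxygen arrays and 12.03, 12.06, 12.03, 11.83 and 12.01 in low-Pcp2 isoflurane arrays. All 5 isoflurane values lay below all 4 oxygen values, by a small margin. In the high-Pcp2 set it ran from 12.48 to 12.84 with a median of 12.69 in oxygen and was 12.61, 12.61, 12.56, 12.45 and 12.85 in isoflurane. It was not called over the 20 arrays, at -0.14 ± 0.07 (limma, adjusted p = 0.207), nor within the low-Pcp2 set, at -0.25 ± 0.10 (limma, adjusted p = 0.114).

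Aplp2 1380895_at went the other way in the low-Pcp2 set. Oxygen arrays there read 8.84, 7.46, 7.93 and 7.03, and isoflurane arrays read 9.54, 9.38, 9.00, 9.41 and 8.55. All isoflurane arrays except replicate 10 exceeded the highest oxygen array. Among the high-Pcp2 arrays it ran from 9.53 to 10.20 with a median of 9.97 in oxygen and was 10.08, 10.05, 9.34, 9.62 and 9.36 in isoflurane. The low-Pcp2 difference was 1.36 ± 0.33 (limma, adjusted p = 0.0189), a 2.56-fold rise, and the high-Pcp2 difference was -0.23 ± 0.16 (limma, adjusted p = 0.524). These effects differed from each other by -1.59 ± 0.37 (high minus low, limma, adjusted p = 0.0132). The low-Pcp2 rise passed in 5 of 9 fits that left out 1 array, and not without oxygen replicate 2 or 4 or isoflurane replicate 2 or 4. With the 3'/5' ratio as a covariate it was 1.37 ± 0.39 and just missed the threshold (limma, adjusted p = 0.0598). Leaving out isoflurane replicates 2, 4, 5 and 6 made it 0.73 ± 0.59 (limma, adjusted p = 0.902), and the contrast of the sets was -0.97 ± 0.53 (limma, adjusted p = 1.000).

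Aplp2 1383096_at read 8.26, 6.31, 7.25 and 6.41 in low-Pcp2 oxygen arrays and 8.76, 8.83, 8.67, 8.63 and 8.21 in the isoflurane arrays. Oxygen replicate 1 was the only oxygen array within the isoflurane range. The difference there was 1.56 ± 0.35, a 2.95-fold rise (limma, adjusted p = 0.0150), and it was 1.69 ± 0.41 with the 3'/5' ratio as a covariate (limma, adjusted p = 0.0423). Without the 4 isoflurane arrays it was 1.15 ± 0.70 (limma, adjusted p = 0.902). Over the 20 arrays it was 0.89 ± 0.28 and just missed the threshold (limma, adjusted p = 0.0569), which it passed at 1.08 without isoflurane replicate 9 (limma, adjusted p = 0.00872) and at 0.95 to 1.01 without oxygen replicate 1, 6 or 9. The remaining Aplp2 probe sets, 1381788_at and 1379718_at, lay below the filter, with log2 signals of 2.90 to 6.85 and 1.08 to 5.24, and were not tested in the main fits. With no filter, 1381788_at differed between the sets' effects by -2.90 (limma, adjusted p = 0.0229).

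**Figure D2:**
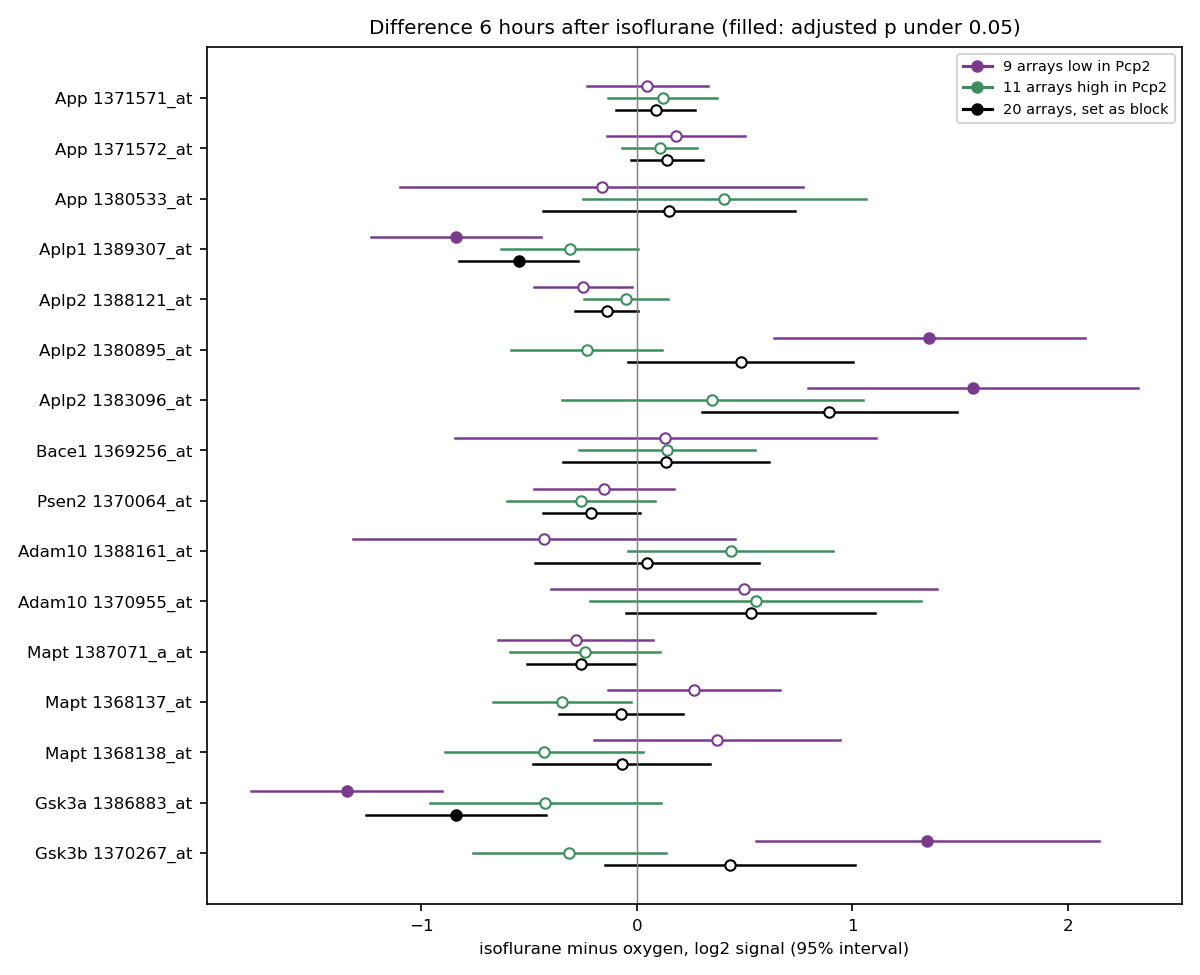
Isoflurane minus oxygen in log2 signal with 95% limma intervals for the 16 tested member probe sets, in the 9 low-Pcp2 arrays, the 11 high-Pcp2 arrays and all 20 with the set as a block; filled points have an adjusted p under 0.05. Filled points are Aplp1, Gsk3a, Gsk3b and 2 Aplp2 probe sets in the low-Pcp2 set, and Aplp1 and Gsk3a over the 20 arrays.

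None of the secretase genes was called in any of these fits. Bace1, the beta-secretase, read 7.67, 5.40, 6.05 and 6.17 in low-Pcp2 oxygen arrays and 6.31, 6.42, 6.10, 6.04 and 7.40 in low-Pcp2 isoflurane arrays. Again oxygen replicate 1 and isoflurane replicate 10 were the high arrays. Over the 11 high-Pcp2 arrays it ran from 6.79 to 7.48 with a median of 7.05 in oxygen and was 6.88, 7.57, 7.50, 7.35 and 6.92 in isoflurane, and the groups overlapped. Its difference over the 20 arrays was 0.14 ± 0.23, with an interval of -0.34 to 0.61 (limma, adjusted p = 0.739).

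Psen2, of the gamma-secretase, read 7.98, 7.88, 8.15 and 8.27 in low-Pcp2 oxygen arrays and 7.84, 7.67, 7.91, 8.15 and 8.03 in low-Pcp2 isoflurane arrays. For the high-Pcp2 arrays it ran from 8.07 to 9.00 with a median of 8.18 in oxygen and was 7.99, 7.94, 8.03, 8.02 and 8.19 in isoflurane. All 10 isoflurane values lay below the mean of the 10 oxygen arrays, 8.20, yet the groups overlapped. That mean was raised by oxygen replicate 10, at 9.00 against 8.07 to 8.20 on the other high-Pcp2 oxygen arrays. Isoflurane replicates 6 and 9, at 8.15 and 8.19, lay only just below it. Within the low-Pcp2 set 1 of 5 isoflurane values lay above the oxygen mean of 8.07. The difference over all arrays was -0.21 ± 0.11 with an interval of -0.44 to 0.01 (limma, adjusted p = 0.216).

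Adam10, the alpha-secretase, had a pair of probe sets. The first, 1388161_at, read 8.38, 7.35, 8.02 and 7.41 in low-Pcp2 oxygen arrays and 7.50, 7.53, 7.33, 6.03 and 8.41 in low-Pcp2 isoflurane arrays. In the high-Pcp2 set it ran from 7.50 to 8.64 with a median of 8.54 in oxygen and was 8.73, 9.26, 9.03, 8.81 and 8.23 in isoflurane. Here 4 of 5 isoflurane arrays exceeded the highest oxygen array, at a difference of 0.43 ± 0.22 (limma, adjusted p = 0.410). Those 4 had log2 3'/5' ratios of 0.63 to 0.75. The slope on that ratio in this set was -2.09 ± 0.82 and was not called (limma, adjusted p = 0.102). Oxygen replicate 10 lay far below the other oxygen arrays of the set, at 7.50 against 8.42 to 8.64. Over the 20 arrays the difference was 0.05 ± 0.25. Its sign turned under other scalings, at -0.022 after quantile normalization and -0.028 with arrays centred on their medians. The dimmer 1370955_at ranged from 5.00 to 8.09, and its difference was 0.53 ± 0.28 with an interval of -0.05 to 1.10 (limma, adjusted p = 0.226).

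Mapt, which encodes tau, had 3 probe sets, and none passed the test over the 20 arrays. For the brightest, 1387071_a_at, low-Pcp2 oxygen arrays read 13.19, 13.08, 13.49 and 12.68, and isoflurane arrays read 12.60, 12.84, 12.59, 12.97 and 13.12. Among the high-Pcp2 arrays it ran from 12.28 to 13.30 with a median of 12.90 in oxygen and was 12.75, 12.56, 12.58, 12.50 and 12.42 in isoflurane. In that set all 5 isoflurane arrays lay below the oxygen mean but within the oxygen range. The difference over the 20 arrays was -0.26 ± 0.12, with an interval of -0.51 to -0.01 (limma, adjusted p = 0.171).

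The other Mapt probe sets had a different pattern. Mapt 1368138_at read 11.25, 11.06, 11.14 and 11.60 in low-Pcp2 oxygen arrays and 11.89, 11.95, 11.78, 11.98 and 10.58 in low-Pcp2 isoflurane arrays. The 4 arrays with the high 3'/5' ratios were above every oxygen array and isoflurane replicate 10 was below them all. Over the 11 high-Pcp2 arrays it ran from 10.77 to 11.56 with a median of 11.04 in oxygen and was 10.36, 10.36, 10.57, 10.54 and 11.50 in isoflurane. Its difference was 0.37 ± 0.26 in the low-Pcp2 set (limma, adjusted p = 0.331) and -0.43 ± 0.21 in the high-Pcp2 set (limma, adjusted p = 0.403). Without isoflurane replicate 9 the high-Pcp2 difference became -0.64 (limma, adjusted p = 0.0375), in a fit that called 5.83% of all probe sets. Replicate 9 had the highest log2 3'/5' ratio of that set, 0.99, and this probe set rose there by 2.80 ± 0.59 per unit of log2 ratio. With the ratio as a covariate, 0 members and 0 probe sets were called in that set. Without isoflurane replicate 10 the low-Pcp2 difference became 0.64 (limma, adjusted p = 0.00207), in a fit that called 33.6% of all probe sets. Mapt 1368137_at behaved similarly, at 12.11 to 12.35 on isoflurane replicates 2, 4, 5 and 6 and at 10.93 to 12.05 on all other arrays.

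Of the kinases, Gsk3a was the member with the largest difference over the 20 arrays among those called. In the low-Pcp2 oxygen arrays 1386883_at read 10.14, 10.84, 10.05 and 10.83, and in the low-Pcp2 isoflurane arrays 8.77, 9.10, 9.15, 9.04 and 9.53. These groups did not overlap, and isoflurane replicate 10 was also below every oxygen array. For the high-Pcp2 arrays it ran from 9.12 to 10.36 with a median of 9.65 in oxygen and was 8.64, 9.77, 9.10, 9.36 and 9.60 in isoflurane. Those groups overlapped. All 10 isoflurane arrays lay below the mean of the 10 oxygen arrays, 10.02, which includes the low-Pcp2 oxygen arrays with their mean of 10.46. Within the high-Pcp2 set 4 of 5 lay below the oxygen mean of 9.72, and replicate 3, at 9.77, lay above it.

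With the set as a block Gsk3a was 1.79-fold lower after isoflurane, a log2 difference of -0.84 ± 0.20 (SE, 10 arrays a group; limma, adjusted p = 0.0198). It passed in all 20 fits that left out 1 array, at -0.93 to -0.75. With the 3'/5' ratio as a covariate it was -0.82 ± 0.21 (limma, adjusted p = 0.0202). Without isoflurane replicates 2, 4, 5 and 6 it kept its direction at -0.54 ± 0.22 and was not called (limma, adjusted p = 0.249), and without the set in the fit it was -0.81 ± 0.21 (limma, adjusted p = 0.0771). Within the low-Pcp2 set the fall was 2.54-fold, at -1.35 ± 0.20 (limma, adjusted p = 0.00709), with -1.32 ± 0.24 after the 3'/5' ratio was added as a covariate (limma, adjusted p = 0.0267). Cortex marker sums were lower on the same isoflurane arrays (5082 to 6370 against 7900 to 12333). Of the 6 cortex markers, Slc17a7, Neurod6 and Emx1 were lower without overlap, and Fezf2, Cux2 and Tbr1 overlapped. The part of these markers in the Gsk3a difference was not tested. It was -0.94 ± 0.34 without the 4 arrays (limma, adjusted p = 0.902). Within the high-Pcp2 set it was -0.42 ± 0.25, with an interval of -0.96 to 0.11 (limma, adjusted p = 0.461). The contrast of the sets, at 0.92 ± 0.35, did not pass (limma, adjusted p = 0.0992).

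As Gsk3a and Aplp1 were the members that fell together over the 20 arrays, the bases ahead of their outermost annotated starts are shown, from RefSeq on the rat assembly GRCr8. Both lie on the minus strand of chromosome 1, Gsk3a at chr1:89953515-89953764 and Aplp1 at chr1:94834706-94834860, and capitals mark the GC box CCGCCC, the reverse complement of GGGCGG.
Gsk3a: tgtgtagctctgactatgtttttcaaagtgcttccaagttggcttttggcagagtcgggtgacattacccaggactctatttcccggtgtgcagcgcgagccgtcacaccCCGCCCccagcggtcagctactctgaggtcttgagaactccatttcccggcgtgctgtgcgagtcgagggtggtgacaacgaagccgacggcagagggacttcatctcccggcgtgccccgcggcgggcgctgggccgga
Aplp1: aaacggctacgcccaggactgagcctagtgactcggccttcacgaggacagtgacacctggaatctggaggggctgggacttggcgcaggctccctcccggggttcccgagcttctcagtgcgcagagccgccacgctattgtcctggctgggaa
The 250 bases of Gsk3a held 1 GC box, a motif found on either strand in 30.5% of 33469 promoters of that length. They held no CCAAT (34.0% of promoters) and no TATAAA (12.9%). The 155 bases of Aplp1 held none of the 3 motifs, which 17.2%, 22.2% and 7.87% of windows of that length hold. These matches describe letters only. A promoter was matched for 8 of the 9 genes in the RefSeq table.

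Gsk3b, the related kinase, separated 4 arrays from the rest. Low-Pcp2 oxygen arrays read 8.66, 8.83, 8.74 and 9.20, and low-Pcp2 isoflurane arrays read 10.58, 10.67, 10.67, 10.42 and 8.68. Isoflurane replicates 2, 4, 5 and 6 were therefore above all other arrays, and replicate 10 lay within the oxygen range. In the high-Pcp2 set it ran from 8.18 to 9.02 with a median of 8.39 in oxygen and was 8.05, 8.19, 8.14, 7.61 and 8.91 in isoflurane. The low-Pcp2 difference was 1.35 ± 0.36, a 2.55-fold rise (limma, adjusted p = 0.0272). It passed in 3 of 9 fits that left out 1 array, and not without oxygen replicate 2 or 3 or isoflurane replicate 2, 4, 5 or 6.

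In the high-Pcp2 set the Gsk3b difference was -0.31 ± 0.21 (limma, adjusted p = 0.506), and the sets' effects differed by -1.66 ± 0.43 (limma, adjusted p = 0.0206). With the 3'/5' ratio as a covariate the low-Pcp2 difference was 0.76 ± 0.25 (limma, adjusted p = 0.0881), and the contrast of the sets was -0.84 ± 0.30 (limma, adjusted p = 0.141). Without isoflurane replicates 2, 4, 5 and 6 the low-Pcp2 difference turned to -0.18 ± 0.26 (limma, adjusted p = 0.937). Over the 20 arrays the difference was 0.43 ± 0.28 (limma, adjusted p = 0.328), and without those 4 it turned to -0.28 ± 0.17 (limma, adjusted p = 0.411). The contrast of the sets was then -0.14 ± 0.42.

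**Figure D3:**
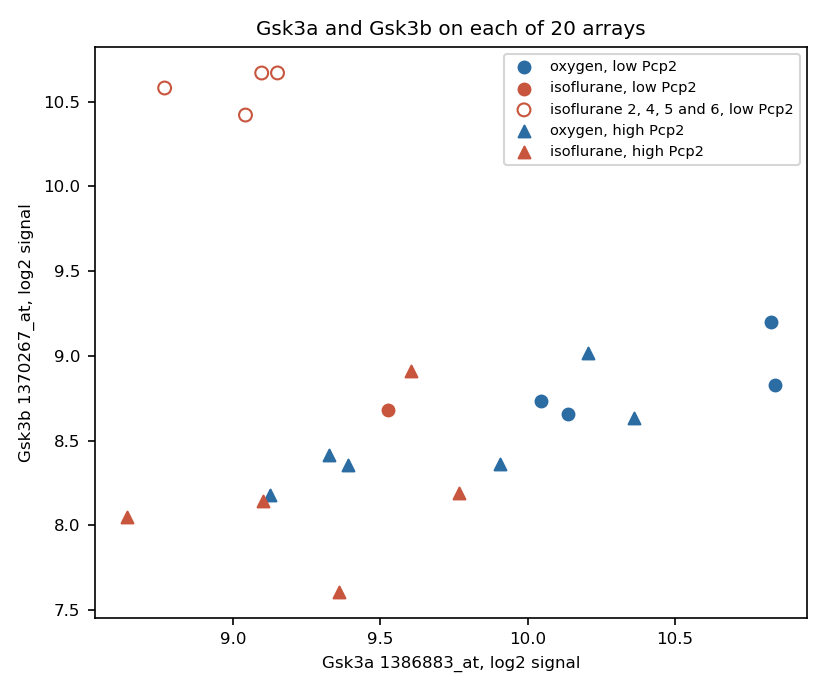
Log2 signal of Gsk3b (1370267_at) against Gsk3a (1386883_at) on each of 20 arrays, with colour for the group, shape for the Pcp2 set and open circles for isoflurane replicates 2, 4, 5 and 6. The open circles lie at a Gsk3a of 8.77 to 9.15 and a Gsk3b of 10.42 to 10.67, apart from all other arrays.

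Counted by set, 5 of 16 member probe sets were called within the 9 low-Pcp2 arrays, with Gsk3a and Aplp1 lower and Gsk3b and both Aplp2 1380895_at and 1383096_at higher. Of all tested probe sets 18.6% were called there, 2087 higher (11.2%) and 1382 lower (7.42%). With arrays centred on their medians 1467 were higher and 3776 lower. Groups did not overlap for 3 members, Gsk3a, Aplp1 and Aplp2 1388121_at, all lower after isoflurane, against 13.2% of all probe sets. With isoflurane replicate 10 left out, Mapt 1368137_at and 1368138_at were added to the 5, and 33.6% of all probe sets were called. Without isoflurane replicates 2, 4, 5 and 6 no member was called, 2 had an unadjusted p under 0.05, and 0 of all probe sets were called (876 at that unadjusted p). Within the 11 high-Pcp2 arrays limma called 0 members and 0% of all probe sets, with 2376 probe sets and 1 member at an unadjusted p under 0.05. That member was Mapt 1368137_at, at -0.35 ± 0.15. No member separated the groups there, against 0.988% of all probe sets. Without isoflurane replicate 9, Aplp1 and Mapt 1368138_at were called in that set, with 1086 (5.83%) of all probe sets.

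The effect of isoflurane differed between the sets for 2 of 16 members, Gsk3b and Aplp2 1380895_at, against 10.2% of all probe sets (480 or 2.58% higher and 1417 or 7.61% lower, or 634 and 1101 after quantile normalization and 2840 and 1059 with arrays centred on their medians). Without isoflurane replicate 10 the count was 6, with Aplp1, Gsk3a, Mapt 1368137_at and Mapt 1368138_at added, against 23.1% of all probe sets in that fit. It was 3 without oxygen replicate 1, with Aplp2 1383096_at added (14.1% of all), and 3 without isoflurane replicate 9, with Mapt 1368138_at added (12.3% of all). The count was 0 without isoflurane replicates 2, 4, 5 and 6. The other members had no called difference, which does not show that they responded alike.

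Levels of the members were next compared between the Pcp2 sets, as a description without a test, since the sets were formed from these arrays. Among oxygen arrays, 2 of 16 member probe sets did not overlap between the sets, against 32.9% of all tested probe sets. Aplp1 was lower in the high-Pcp2 set by a mean difference of -1.07, at 12.05 ± 0.25 (SD, n = 6) against 13.13 ± 0.08 (n = 4). Aplp2 1380895_at was higher there by 2.11, at 9.93 ± 0.25 against 7.82 ± 0.78. Among isoflurane arrays only Aplp2 1388121_at did not overlap, at 12.62 ± 0.15 in the high-Pcp2 set and 11.99 ± 0.09 in the low-Pcp2 set (n = 5 each), against 36.0% of all probe sets. Over both groups no member separated the sets completely, against 18.8% of all probe sets.

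Several members leaned the same way between the sets in both groups. App 1371571_at was lower in the high-Pcp2 set by a mean difference of -0.38 in oxygen and -0.30 in isoflurane, and Mapt 1387071_a_at by -0.30 and -0.26. The App probe sets disagreed, as 1380533_at was higher in that set, by 0.54 and 1.11, and 1371572_at was at -0.04 and -0.12. Bace1 was higher there by 0.78 and 0.79, and Adam10 1388161_at by 0.59 and 1.45. Gsk3a was the exception among the kinases, at -0.74 in oxygen and 0.18 in isoflurane, while Gsk3b was at -0.36 and -2.02. In order of mean level, Gsk3a stood at 10.46 ± 0.43 in low-Pcp2 oxygen, 9.72 ± 0.51 in high-Pcp2 oxygen, 9.29 ± 0.44 in high-Pcp2 isoflurane and 9.12 ± 0.27 in low-Pcp2 isoflurane arrays. Neighbours in that order overlapped in range. Aplp1 stood at 13.13 in low-Pcp2 oxygen, 12.29 ± 0.41 in low-Pcp2 isoflurane, 12.05 in high-Pcp2 oxygen and 11.74 ± 0.31 in high-Pcp2 isoflurane arrays, and only the highest of these did not overlap its neighbour. Gsk3b stood at 10.20 ± 0.86 in low-Pcp2 isoflurane, 8.86 ± 0.24 in low-Pcp2 oxygen, 8.49 ± 0.29 in high-Pcp2 oxygen and 8.18 ± 0.47 in high-Pcp2 isoflurane arrays, and neighbours overlapped, the first pair through isoflurane replicate 10 alone.

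**Figure D4:**
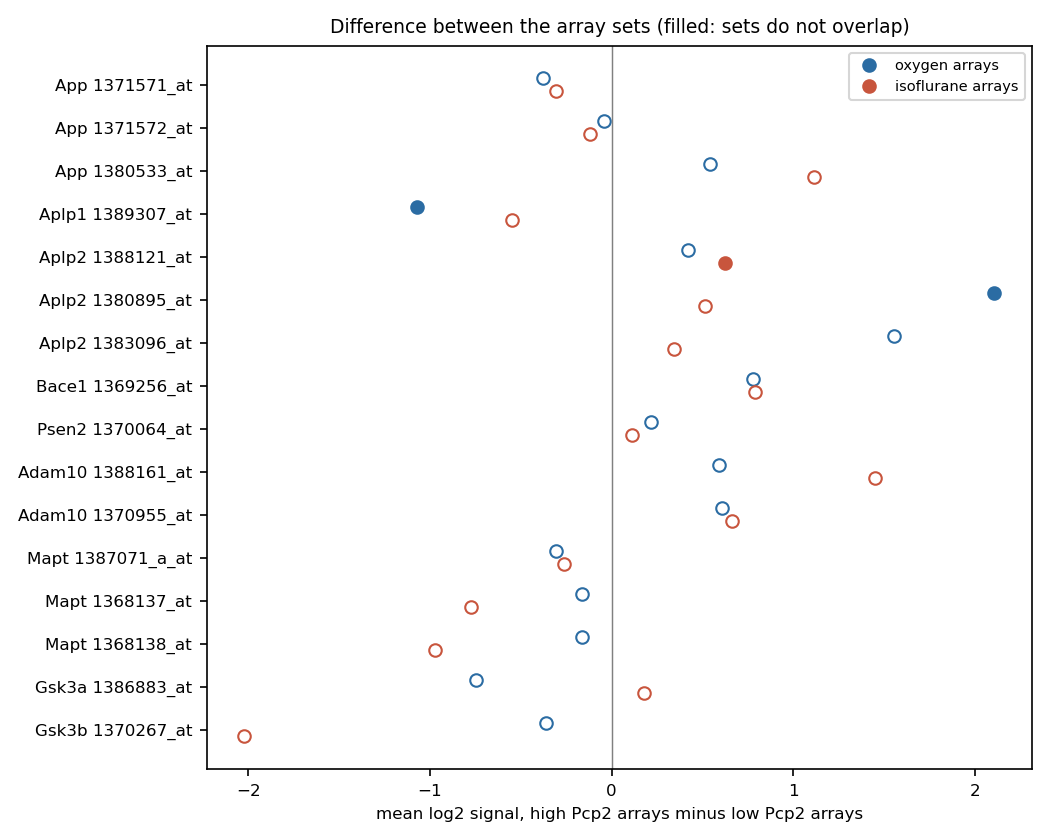
Mean log2 signal in the high-Pcp2 arrays minus that in the low-Pcp2 arrays for the 16 tested member probe sets, in oxygen and isoflurane arrays separately; filled points mark probe sets whose sets do not overlap. The widest gap is Aplp2 1380895_at in oxygen arrays at 2.11, and Gsk3b in isoflurane arrays is at -2.02.

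The members' signals also moved with the 3'/5' ratio where isoflurane replicates 2, 4, 5 and 6 were not involved. Within the 11 high-Pcp2 arrays, whose log2 ratio ran from 0.63 to 0.99, 8 of 16 members had a called slope on the ratio with the group kept in the fit, against 16.2% of all tested probe sets (limma). Slopes were positive for Aplp1, Aplp2 1388121_at, Mapt 1368137_at, Mapt 1368138_at and Gsk3b, and negative for App 1380533_at, Aplp2 1383096_at and Adam10 1370955_at. Per unit of log2 ratio, App 1380533_at changed by -4.69 ± 0.49 (limma, adjusted p = 0.000867) and Adam10 1370955_at by -4.91 ± 0.90 (limma, adjusted p = 0.00471). Mapt 1368138_at changed by 2.80 ± 0.59 (limma, adjusted p = 0.00849) and Gsk3b by 2.41 ± 0.67 (limma, adjusted p = 0.0290). Gsk3a had a slope of 2.22 ± 0.96 that was not called (limma, adjusted p = 0.134). Tissue markers also varied along the ratio. Oxygen replicates 5 and 7 and isoflurane replicate 9, with ratios of 0.88 to 0.99, had cerebellar sums of 48644 to 49649. Their cortex sums were 6665 to 7359. On the remaining high-Pcp2 arrays, with ratios of 0.63 to 0.93, these sums were 54754 to 66318 and 2898 to 5480. The part of tissue in these slopes was not tested.

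For App 1380533_at, the closest of 16 relations computed, Pearson's r over the 11 arrays was -0.955 and Spearman's rho was -0.891 (permutation p = 2e-05 and 0.00046). Without the 2 arrays farthest from the median ratio r was -0.919. For Gsk3b r was 0.806 and rho was 0.855 (permutation p = 0.0019 and 0.0015), and r was 0.722 without the 2 farthest. The 9 low-Pcp2 arrays fell into separate clusters, so no pooled r is given. There, App 1380533_at was 11.03 and 11.13 on the arrays with a log2 ratio of 0.754 and 0.755, and 9.15 to 9.86 on the arrays with one of 1.00 to 1.59.

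**Figure D5:**
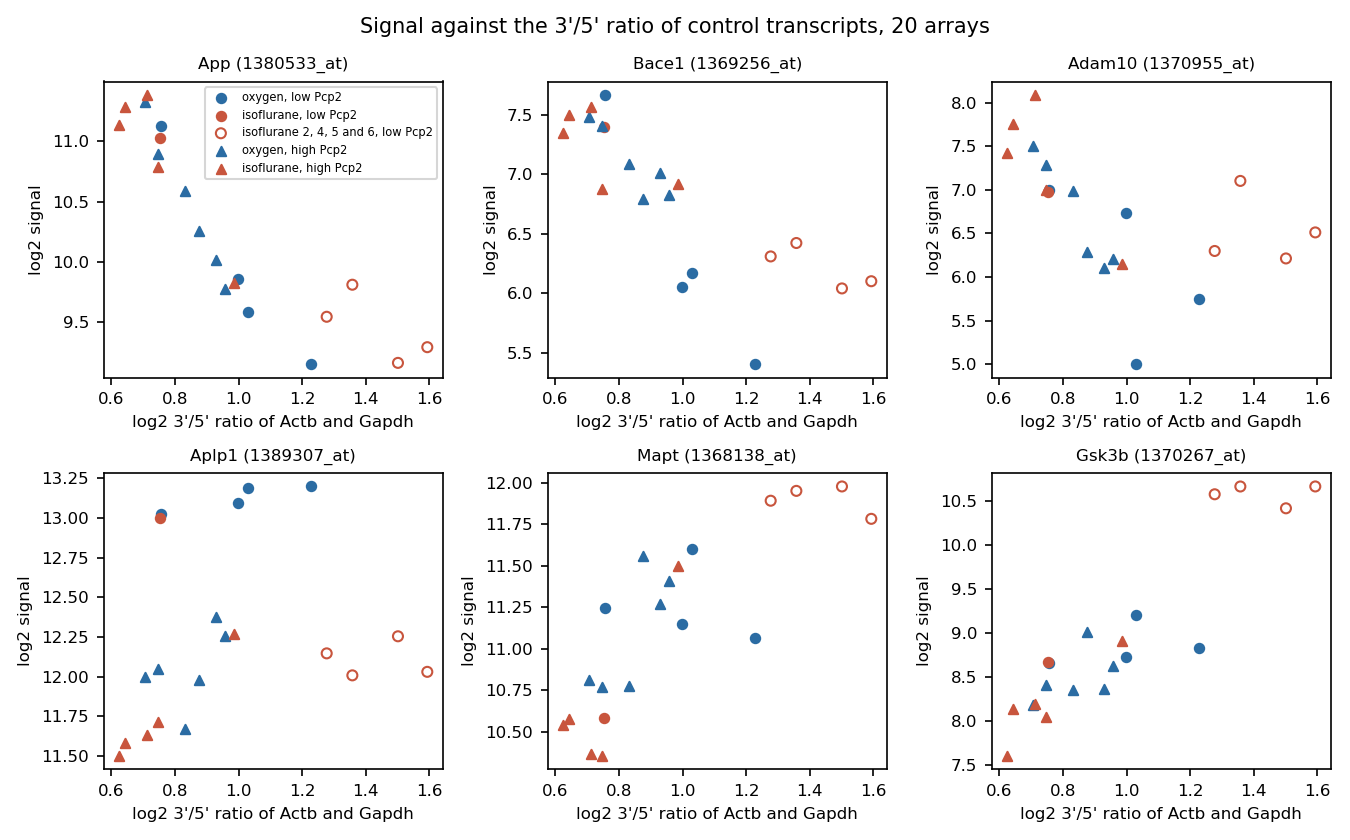
Log2 signal of 6 member probe sets against the log2 3'/5' ratio of the control transcripts Actb and Gapdh on 20 arrays, with colour for the group, shape for the Pcp2 set and open circles for isoflurane replicates 2, 4, 5 and 6. Among the high-Pcp2 arrays (triangles), App 1380533_at and Adam10 1370955_at are lower and Mapt 1368138_at, Gsk3b and Aplp1 higher on arrays with a higher ratio; the open circles, at 1.28 to 1.59, are highest in Gsk3b.

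Probe sets of the same gene did not always agree. After centring within the 4 combinations of group and set, Aplp2 1388121_at and 1383096_at had a Pearson r of -0.71 over the 20 arrays, and Mapt 1387071_a_at and 1368138_at one of -0.54. App 1371571_at and 1380533_at had an r of 0.18, and Mapt 1368137_at and 1368138_at one of 0.73. Between genes the closest were App 1380533_at with Bace1, at 0.90, and Mapt 1368138_at with Gsk3b, at 0.88. The arrays share their RNA preparations and 3'/5' ratios across all probe sets, so these values are descriptions.

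Genes with the most similar pattern to each member were found the same way, by Pearson r over 20 arrays after centring. They were sought among the brightest tested probe set of 10315 genes, less those with symbols of other forms, such as LOC or RGD numbers. Each member was taken at its brightest tested probe set alone, although probe sets of a gene did not always agree. The genes nearest App were Zwint, Rheb and Tubb2a, at 0.95, 0.94 and 0.94. Aplp1 was nearest to Slc6a9, B4galnt1 and Ncdn, at 0.92, 0.92 and 0.91, and Aplp2 to Pcdhb19, Prkaca and Atp6v0a1, at 0.90, 0.90 and 0.87. For Bace1 they were Gopc, Bfar and Cdk5r1, at 0.90, 0.90 and 0.89, and for Psen2 Nisch, C20h6orf136 and Adissp, at 0.84, 0.83 and 0.83. For Adam10 they were Chm, Kcnj3 and Lgr4, at 0.96, 0.94 and 0.90, and for Mapt Sptan1, Ap3d1 and Trak2, at 0.89, 0.88 and 0.88. Gsk3a was nearest to Ap1b1, Mecr and Slc32a1, at 0.83, 0.80 and 0.80, and Gsk3b to Ube2r2, Kmt5a and Ntrk3, at 0.94, 0.93 and 0.92.

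Other genes of these pathways were taken from lists of 79 genes, of which 66 were tested. Over the 20 arrays with the set as a block, 1 was higher and 8 were lower after isoflurane, against 7.73% of 10315 genes called. Their median difference was -0.04, and that of all genes was -0.02. Among 16 tested adaptors and sorting factors of App, 3 fell. These were Gga3 at -0.39 ± 0.08 (limma, adjusted p = 0.0105) and Gga1 at -0.33 ± 0.07 (limma, adjusted p = 0.0162), adaptors that sort Bace1 between membranes, and Apba1, which binds the tail of App, at -0.41 ± 0.10 (limma, adjusted p = 0.0211). None of 3 gamma-secretase partners and none of 2 other secretases was called, the lowest adjusted p values belonging to Ncstn, a gamma-secretase subunit, at -0.29 ± 0.10 (limma, adjusted p = 0.0678), and Adam17, at 0.07 ± 0.10 (limma, adjusted p = 0.707). Of 5 genes of amyloid-beta degradation and carriage, Ece1, a protease that can degrade amyloid-beta, fell by 0.40.

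On the side of tau, 12 other kinases and activators were tested. Mark4, a kinase of microtubule-binding sites, fell by 0.97 (SE 0.26; limma, adjusted p = 0.0307). Ttbk2, a tau tubulin kinase, rose by 0.31 (SE 0.06; limma, adjusted p = 0.0113). Of 12 tau phosphatase and isomerase genes, Ptpa, an activator of the phosphatase PP2A, fell by 0.43, and of 7 regulators of Gsk3 and its beta-catenin complex, Akt1, whose product phosphorylates and inhibits Gsk3, fell by 0.53. Map1a was called of 9 other microtubule-associated genes, at -0.86 ± 0.19 (limma, adjusted p = 0.0139). With isoflurane replicates 2, 4, 5 and 6 left out, none of the 66 and 0 of the 10315 genes were called, and without the set in the fit 1 was higher and 1 lower, against 0.524% of all genes. In the former fit the lowest adjusted p was that of Apba1, at -0.51 ± 0.12 (limma, adjusted p = 0.126).

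Within the low-Pcp2 arrays, 1 of the 66 was higher and 11 were lower, against 15.3% of all genes. They included Map1a at -1.34 ± 0.20 and Akt1 at -0.85 ± 0.13 (limma, adjusted p = 0.0071 for both). Within the high-Pcp2 arrays limma called none of the 66 and 0 of the 10315 genes, the lowest adjusted p being that of Apba1, at -0.50 ± 0.14 (adjusted p = 0.331). The effect differed between the sets for 4 of the 66, namely Apbb1, Apba2, Vps35 and Ppp2r1a, against 7.10% of all genes.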

How the data were processed

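What was deposited is the MAS5 signal of each probe set, an intensity on a linear scale, for which the submitters' processing notes name MAS5 and Affymetrix Expression Console. Their versions and settings are not given in the sources used here. Each array had a mean signal of 500.1 to 500.2 once 2% was trimmed from either end. Arrays had thus been scaled, and differences are relative to an array's average transcript. Detection calls were not used here.

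A floor of 1 was applied (to 2015 values) before log2 was taken. Of 31042 non-control probe sets, 18625 exceeded the 40th percentile of mean log2 signal (6.62) and were tested on the 10 oxygen and 10 isoflurane arrays, grouped by their titles. Tests used limma (version 3.58.1, R 4.3.3; lmFit, then eBayes with an intensity trend), two-sided, with Benjamini-Hochberg adjustment over all tested probe sets. The Pcp2 sets are arrays above or below a linear Pcp2 signal of 4096. By the platform annotation 20826 probe sets had 1 gene symbol, 436 had more than 1, and 9780 had no symbol. List genes stand for their brightest tested probe set and were named where called or lowest in p. All members are described. Alternatives covered scaling, floor, filter, variance model, covariates, blocks and left-out arrays. The slope on the 3'/5' ratio was added after seeing the data. Permutation p-values used 100000 resamples (scipy 1.17.1). The fits were also run on simulated data with independent noise for each probe set. Those data held no shared 3'/5' ratio or tissue differences, so they do not bear on these. The number of arrays limits the precision.

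The members, lists, array sets and the 4 arrays left out were chosen with earlier results of these data known. The titles call samples biological replicates, and p-values set differences against the spread between the arrays of these rats. That spread also holds differences in tissue markers and in the 3'/5' ratio between arrays.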

Additional observations from a re-analysis of the deposited data

Results flagged for a closer look

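Of 64 groups of values (16 member probe sets in 4 combinations of group and set), 10 had 1 array far from the rest by Dixon's criterion, which chance alone gives in about 1 of 20 groups. Among the low-Pcp2 isoflurane arrays, replicate 10 was highest for Aplp1 at 13.00 (others 12.01 to 12.25) and Bace1 at 7.40 (others 6.04 to 6.42). It was lowest for Gsk3b at 8.68 (others 10.42 to 10.67), Mapt 1368137_at at 11.38 (others 12.11 to 12.35) and Mapt 1368138_at at 10.58 (others 11.78 to 11.98). Replicate 10 also had the highest cerebellar marker sum of that set, at 8525 against 2077 to 4844. Replicate 6 was lowest for Aplp2 1388121_at, at 11.83. Among the high-Pcp2 isoflurane arrays, replicate 9 was highest for Aplp1 at 12.27 (others 11.50 to 11.72) and Mapt 1368138_at at 11.50 (others 10.36 to 10.57). Among the high-Pcp2 oxygen arrays, replicate 10 was highest for Psen2 at 9.00 (others 8.07 to 8.20) and lowest for Adam10 1388161_at at 7.50 (others 8.42 to 8.64).

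The isoflurane effect differed between the Pcp2 sets (high minus low, limma) for Gsk3b, by -1.66, and for Aplp2 1380895_at, by -1.59.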

How the results depend on the processing

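Of 2 members called over the 20 arrays (7.37% of all probe sets), 0 were called without isoflurane replicates 2, 4, 5 and 6 (0% of all) or without the set term (0.397%). In a fit of the 4 group and set combinations 4 were called (16.9%). The 5 called in the low-Pcp2 set (18.6% of all) became 8 with array weights (36.4%) and 2 with the 3'/5' ratio as a covariate (5.97%). With 1 array left out they became 3 to 7 (8.62% to 33.6%). Leaving out 1 array gave 2 to 3 over the 20 arrays (2.58% to 15.8% of all) and 0 to 2 in the high-Pcp2 set (0% to 5.83%). For the difference between the sets it gave 2 to 6 (5.95% to 23.1%). The count for that difference, 2 in the main analysis (10.2% of all), became 4 with arrays centred on their medians (20.9%). It was 7 with array weights (31.2%) and 0 with the ratio as a covariate (0.558%). Members whose levels did not overlap between the sets in oxygen arrays went from 2 to 4 after quantile normalization (from 32.9% to 31.9% of all probe sets). The cause of these changes was not tested.

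Among single probe sets over the 20 arrays, signs turned for Gsk3b (-0.28) and Aplp2 1380895_at (-0.014) without the 4 arrays, App 1371571_at (-0.021, quantile) and Adam10 1388161_at (-0.022 quantile, -0.028 centred, -0.056 with no set term). With 1 array left out, Adam10 1388161_at ran from -0.064 to 0.21 and Mapt 1368138_at from -0.15 to 0.020. Gsk3b in the low-Pcp2 set turned to -0.18 without the 4 arrays. Signs of uncalled members turned in some alternative for 4 of 14 over the 20 arrays, 8 of 11 and 5 of 16 within the low- and high-Pcp2 sets, and 10 of 14 for the difference between them. Centring moved the median of all probe sets to -0.21 in the low-Pcp2 set and to 0.25 for the difference between the sets.

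Calls among all probe sets went from 1372 over the 20 arrays to 74 (no set term), 3142 (4 combinations), 0 (without the 4 arrays) and 480 to 2938 (1 array left out, without oxygen replicate 4 and isoflurane replicate 9), from 3469 in the low-Pcp2 set to 6787 (array weights), 5243 (centred), 1111 (covariate) and 1606 to 6266 (without isoflurane replicates 2 and 10), from 0 in the high-Pcp2 set to 1075 (array weights) and 1086 (without isoflurane replicate 9), and from 1897 for the difference between the sets to 3899 (centred), 1037 (a filter at the 60th percentile, which tests fewer), 5815 (array weights), 104 (covariate), 13 (without the 4 arrays) and 1109 to 4303 (without isoflurane replicates 2 and 10).

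Replicate numbers are shared by the groups, and the titles do not say whether they pair the rats. Of 10 same-numbered pairs centred within groups, 5 correlated above 0.1 (range -0.66 to 0.62). These were the 5 pairs within a Pcp2 set, and the 5 pairs across the sets were all negative. These values therefore follow the sets and cannot show whether rats were paired. Centred within each combination of group and set, 2 of 10 were above 0.1 (range -0.26 to 0.23), so same-numbered arrays were not generally alike. With the number as a replicate block beside the set, Gsk3a was -0.82 (adjusted p = 0.0980) and Aplp1 was -0.55 (adjusted p = 0.0770, limma), so 0 members and 29 probe sets were called. With the replicate block and no set term 0 members and 0 probe sets were called, and Adam10 1388161_at was -0.056.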
